A study of Mus musculus with 12 samples.

Results

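The genes followed were the transcription factor genes Stat2, Stat3, Stat4, Stat5a, Stat5b and Stat6 and the kinase genes Jak1, Jak2 and Jak3. They were taken by gene symbol, 9 of the 47643 genes in the table. Each symbol matched 1 row. RNA was sequenced in 12 mouse libraries, 3 in each of 4 groups, from C57BL/6 splenic T cells labelled as naive CD4+ and activated for 3 days by plate-bound anti-CD3 and anti-CD28 (2 μg/ml each). WT cells received no added cytokine (Th0), 20 ng/ml IL-6 with 2 ng/ml TGF-β, or 20 ng/ml TNF with 2 ng/ml TGF-β. Tnfr2-/- cells, from mice without TNF receptor 2 (gene Tnfrsf1b), received the same TNF+TGF-β. Neither Tnfr2-/- Th0 cells nor cells given TGF-β by itself were analysed here, so genotype without cytokine and the members of each cytokine pair were not separated.

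Cytokine receptors without kinase activity of their own carry JAK kinases on their cytoplasmic tails. Ligand binding brings the kinases together, they phosphorylate the receptor, and STAT proteins dock there, are phosphorylated, pair and move to the nucleus. In T cells the receptor for IL-6 acts chiefly through STAT3 and favours Th17 differentiation, IL-2 acts through JAK1, JAK3 and STAT5, IL-12 through STAT4 and IL-4 through STAT6. Type I interferons use STAT2. TNF receptors do not recruit JAK kinases directly, and TGF-β receptors signal through SMAD proteins. Activity of these proteins depends on phosphorylation, which RNA levels do not show.

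All 9 genes passed the filter of at least 1 FPKM in at least 3 libraries, as did 13082 genes in all. FPKM correct each fragment count for transcript length and for library depth, so levels can be compared between genes. Over the 12 libraries the mean level was highest for Jak1 (171 FPKM) and Stat3 (133 FPKM) and lowest for Stat4 (38.98 FPKM) and Stat2 (10.4 FPKM). Stat2 lay above 43.5% of the tested genes and Jak1 above 93.7%. Depth was estimated from the steps between low values at 16800000 to 24000000 fragments per library, which puts the lowest member value, Stat2 in replicate 1 of IL-6+TGF-β, at about 205 fragments. These estimates cover counting error only. The labels give triplicates without naming separate mice or cultures, so the p-values measure sample-to-sample spread that could be technical.

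The labels were checked first. Tnfrsf1b was at 3.19 to 4.87 FPKM in the Tnfr2-/- libraries and at 70.8 to 108 FPKM in the WT libraries with the same cytokines. T cell receptor and coreceptor genes were present in every library, but Cd8a and Cd8b1 were both above Cd4 in 11 of 12 libraries, against the CD4+ label. The summed level of 8 B cell markers was 769 to 1222 FPKM in Th0, 422 to 938 with IL-6+TGF-β, 264 to 339.9 with TNF+TGF-β and 1960 to 4307 in Tnfr2-/- cells. None of the 8 was at 0 throughout a group. The first principal component of all tested genes (32.1% of the variance) placed Tnfr2-/- libraries at 42.7 to 79.2 and every WT library below 0. In bulk RNA, a change in the number of cells of a type and a change in RNA per cell cannot be told apart.

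Where the genes lie bears on how they were counted. Stat5b (100780731 to 100850724, minus strand), Stat5a (100859351 to 100885169, plus strand) and Stat3 (100885098 to 100939540, minus strand) are neighbours on chromosome 11 of GRCm38. Stat5a and Stat5b start 8627 bases apart and point away from each other, and Stat5a and Stat3 overlap at their 3′ ends and share exon bases there. The library kit does not mark strand, so reads in that overlap could not be told apart. Stat2 (128270559 to 128292849) and Stat6 (127642986 to 127660957) both lie on the plus strand of chromosome 10. Stat4 is on chromosome 1 (51987148 to 52107189, plus), Jak1 on chromosome 4 (101152367 to 101265282, minus), Jak2 on chromosome 19 (29251828 to 29313080, plus) and Jak3 on chromosome 8 (71676296 to 71690575, plus). Stat6 shares exon bases with Nab2 on the other strand, which was at 8.44 to 49.9 FPKM, and Jak3 with Insl3 on its own strand, at 8.63 to 24.2 FPKM. Jak1 shares exon bases with Raver2, which was at 0.37 to 0.83 FPKM.

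Stat5a and Stat5b are close paralogs that arose as a tandem pair. Of the 3839 stretches of 50 bases in the longest Stat5a transcript, 608 (15.8%) also occur in a Stat5b transcript, and no other pair of the 9 genes shared such a stretch read on the same strand. RSEM divides reads in shared stretches between the genes, so part of each value rests on that division. RefSeq gives 2 starts for each gene, and the windows of 250 bases before them (GRCm38.p6) were compared in 4 pairs. The best stretch of 60 aligned bases matched at 51 in 1 pair and at 35, 32 and 30 in the other 3. The best 30 bases of that match, at chr11:100860438-100860467 on the plus strand for Stat5a and chr11:100822578-100822607 on the minus strand for Stat5b, are shown as the closest match found between windows of the paralogs. They are read 5′ to 3′ and begin 46 and 37 bases before the respective start, and capitals mark the 28 identical bases. The Stat5a stretch also falls within an exon of another annotated Stat5a transcript.
Stat5a: GCTGACCTTTgAGgAGGAAATCGCTGCTCT
Stat5b: GCTGACCTTTtAGaAGGAAATCGCTGCTCT

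Stat5a, which with Stat5b carries the signal of IL-2 and IL-7, had the largest difference of the 9 genes from Th0 with TNF+TGF-β. Its values were 36.7, 40.4 and 32.7 FPKM in Th0, 82.2, 129.96 and 121 with IL-6+TGF-β, 155, 181 and 140.02 with TNF+TGF-β, and 101, 72.9 and 49.9 in Tnfr2-/- cells. Every library with added cytokine was above every Th0 library, and the 3 WT libraries with TNF+TGF-β were above all others. On the log2(FPKM + 1) scale used for all differences, Stat5a rose by 2.08 ± 0.24 (SE, limma adjusted p = 4.55e-05) with TNF+TGF-β and by 1.55 ± 0.24 (adjusted p = 0.000468) with IL-6+TGF-β. Between the cytokine pairs the difference was 0.53 (95% interval 0.01 to 1.05, adjusted p = 0.186), which did not pass although the libraries did not overlap. In Tnfr2-/- cells Stat5a was lower than in WT cells by 1.13 ± 0.24 (adjusted p = 0.00312), and still above all Th0 libraries.

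Stat5b was called higher than Th0 with both cytokine pairs, and was not called in the other comparisons. It stood at 24.2, 33.6 and 28.9 FPKM in Th0, 54.7, 101 and 103 with IL-6+TGF-β, 83.5, 95.7 and 74.5 with TNF+TGF-β, and 90.5, 54.1 and 47.1 in Tnfr2-/- cells. No Th0 library reached the lowest library of any other group, while the 3 groups with cytokine overlapped. Stat5b rose by 1.52 ± 0.27 (limma adjusted p = 0.00132) with TNF+TGF-β and by 1.50 ± 0.27 (adjusted p = 0.00165) with IL-6+TGF-β. The cytokine pairs differed by 0.02 (95% interval −0.57 to 0.61), and Tnfr2-/- cells differed from WT by −0.45 (−1.04 to 0.14, adjusted p = 0.214). The last value passed as a fall without replicate 1 of the Tnfr2-/- group (adjusted p = 0.0417). Without the Tnfr2-/- library numbered 4 it was −0.26 (limma adjusted p = 0.5275).

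The proportion of Stat5a to Stat5b was close to constant within the TNF+TGF-β group and higher there than elsewhere. The ratio of their FPKM was 1.86, 1.89 and 1.88 with TNF+TGF-β, 1.52, 1.20 and 1.13 in Th0, 1.50, 1.29 and 1.18 under IL-6+TGF-β, while Tnfr2-/- cells had 1.11, 1.35 and 1.06. The WT TNF+TGF-β libraries overlapped with no library of another group. Each of the 3 comparisons gave p = 0.10 by a two-sided exact permutation test, the smallest that 3 against 3 libraries allow, and no adjusted p over the 56 comparisons of ratios, shares and sums was below 0.137.

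**Figure D1:**
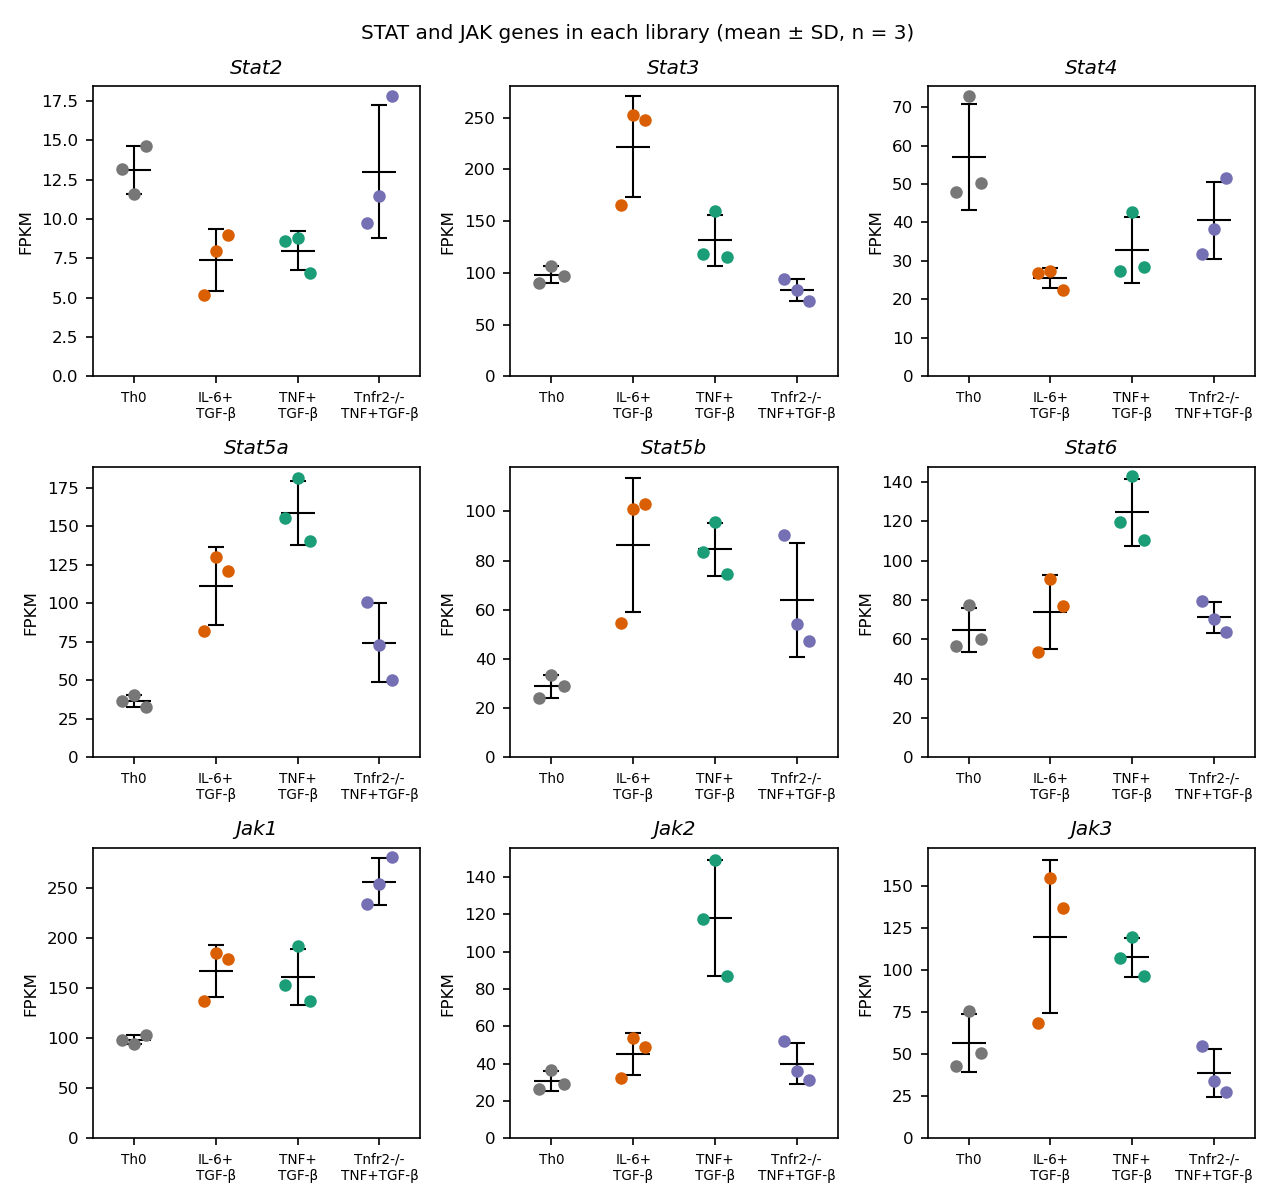
FPKM (vertical axis, from 0) of each of the 9 genes in the 4 groups (horizontal axis). Coloured points are libraries, and black bars are the mean and SD of 3 libraries. Stat3 is highest with IL-6+TGF-β, Jak2 and Stat6 with TNF+TGF-β in WT cells, and Jak1 in Tnfr2-/- cells.

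Stat3, the main STAT of the IL-6 receptor, was highest with IL-6+TGF-β. Its values were 90.3, 107 and 96.9 FPKM in Th0, 165, 253 and 247 with IL-6+TGF-β, 118, 160.02 and 116 with TNF+TGF-β, and 93.9, 82.95 and 72.4 in Tnfr2-/- cells. The 3 WT groups did not overlap one another, and Tnfr2-/- cells overlapped with Th0. Stat3 rose by 1.15 ± 0.18 (limma adjusted p = 0.000654) with IL-6+TGF-β over Th0. With TNF+TGF-β it was 0.41 ± 0.18 above Th0 (adjusted p = 0.111), which passed in a fit of these 2 groups alone (0.0477). Under TNF+TGF-β it was lower than under IL-6+TGF-β by 0.74 ± 0.18 (adjusted p = 0.0177), a call lost without replicate 2 (0.0661) or 3 (0.0752) of IL-6+TGF-β or replicate 1 (0.0819) or 3 (0.0742) of TNF+TGF-β, under TPM scaling (0.0743) and in a fit of the 2 groups alone (0.0561). Tnfr2-/- cells were lower than WT by 0.65 ± 0.18 (adjusted p = 0.0163), lost without replicate 2 of TNF+TGF-β (0.067) or the Tnfr2-/- library numbered 4 (0.0635).

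Relative to the STAT5 genes, Stat3 was in excess in Th0 and not with TNF+TGF-β. Stat3 divided by the sum of Stat5a and Stat5b was 1.44 to 1.57 in Th0, 1.09 to 1.21 with IL-6+TGF-β, 0.495 to 0.578 with TNF+TGF-β and 0.492 to 0.747 in Tnfr2-/- cells. The 3 WT groups did not overlap, with p = 0.10 for each pair by the exact permutation test (two-sided), and the Tnfr2-/- libraries overlapped with WT TNF+TGF-β (p = 0.40).

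Stat6, the STAT of the IL-4 receptor, was raised with TNF+TGF-β in WT cells. It was at 56.5, 77.2 and 60.03 FPKM in Th0, 53.4, 90.7 and 76.97 with IL-6+TGF-β, 120, 143 and 110 with TNF+TGF-β, and 79.3, 70.4 and 63.9 in Tnfr2-/- cells. The TNF+TGF-β libraries of WT cells were above all 9 others, which overlapped. Stat6 rose by 0.94 ± 0.19 (limma adjusted p = 0.00318) over Th0 and was lower in Tnfr2-/- cells by 0.79 ± 0.19 (adjusted p = 0.00731). With IL-6+TGF-β the difference from Th0 was 0.17 (95% interval −0.25 to 0.59, adjusted p = 0.585). TNF+TGF-β exceeded IL-6+TGF-β by 0.77 ± 0.19 (adjusted p = 0.0189), a call lost without replicate 1 of IL-6+TGF-β (0.055) or replicate 1 (0.0573) or 2 (0.0886) of TNF+TGF-β.

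Stat4 and Stat2 were the 2 members called lower than Th0 with IL-6+TGF-β, and Stat4 also with the other pair. Stat4, which carries the IL-12 signal of Th1 cells, was at 47.9, 72.95 and 50.2 FPKM in Th0, 26.8, 27.3 and 22.5 with IL-6+TGF-β, 27.3, 42.6 and 28.5 with TNF+TGF-β, and 31.9, 38.2 and 51.5 in Tnfr2-/- cells. Both WT cytokine groups were below all Th0 libraries, and the Tnfr2-/- libraries overlapped with Th0 and with WT TNF+TGF-β. Stat4 fell by 1.11 ± 0.22 (limma adjusted p = 0.00336) with IL-6+TGF-β and by 0.78 ± 0.22 (adjusted p = 0.0193) with TNF+TGF-β. The latter call was lost without Th0 replicate 2 (adjusted p = 0.0718), without replicate 1 (0.0791) or 3 (0.0638) of TNF+TGF-β, and under TPM scaling (0.068). Tnfr2-/- cells differed from WT by 0.30 (95% interval −0.19 to 0.78).

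Stat2, a subunit of the interferon-activated complex ISGF3, was at 13.2, 11.6 and 14.6 FPKM in Th0, 5.18, 7.94 and 8.99 with IL-6+TGF-β, 8.61, 8.81 and 6.56 with TNF+TGF-β, and 9.75, 11.5 and 17.8 in Tnfr2-/- cells. Th0 libraries were above all libraries of both WT cytokine groups, and Tnfr2-/- libraries were above WT TNF+TGF-β. Stat2 fell by 0.78 ± 0.23 (limma adjusted p = 0.0315) with IL-6+TGF-β. That call was lost without Th0 replicate 1 (0.0829) or 3 (0.112), without replicate 1 (0.0843) or 2 (0.0549) of IL-6+TGF-β, without a filter on low values (0.0641) and under TPM scaling (0.0844). The difference was −0.66 ± 0.23 (adjusted p = 0.0517) with TNF+TGF-β, which passed under median-ratio scaling (0.0466) and in a fit of the 2 groups alone (0.0114). It was 0.61 ± 0.23 (adjusted p = 0.06002) in Tnfr2-/- cells against WT, which passed without their replicate 1 (0.0265). Without the Tnfr2-/- library numbered 4 that difference was 0.37 (limma adjusted p = 0.225).

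RefSeq windows of the 250 bases before the start (GRCm38.p6) were available for all 9 genes, 12 windows in all. They were searched on both strands for the STAT palindrome TTCNNNGAA, for an interferon-response core (TTTC, 2 bases of any kind, TTTC) and for the NF-κB consensus. TTCNNNGAA was in none of the 12 windows, and in 7.02% of all 32851 windows of that length. The NF-κB consensus was in 1 window, of Stat5a, and in 5.93% of all windows. The interferon-response core was in 1 Stat2 window and, on the other strand, in 1 Stat4 window, against 2.98% of all windows. The other Stat4 window, at chr1:51986898-51987147, held none of the motifs. The windows with the core are shown, the Stat4 one lying within the annotated gene. Stat2 and Stat4 were both called lower than Th0 with IL-6+TGF-β, and of them only Stat4 with TNF+TGF-β. Whether the core bears on these calls was not tested. The windows shown lie at chr10:128270248-128270497 and chr1:52007990-52008239, both on the plus strand. Capitals mark the interferon-response core, which starts 222 bases before the Stat2 start and 97 before the Stat4 start. A match of letters is no evidence of binding, and binding was not measured.
Stat2: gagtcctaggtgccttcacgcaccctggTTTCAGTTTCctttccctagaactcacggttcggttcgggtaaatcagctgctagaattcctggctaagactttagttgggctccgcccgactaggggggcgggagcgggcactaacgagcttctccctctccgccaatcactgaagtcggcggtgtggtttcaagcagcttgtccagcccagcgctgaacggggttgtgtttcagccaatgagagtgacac
Stat4: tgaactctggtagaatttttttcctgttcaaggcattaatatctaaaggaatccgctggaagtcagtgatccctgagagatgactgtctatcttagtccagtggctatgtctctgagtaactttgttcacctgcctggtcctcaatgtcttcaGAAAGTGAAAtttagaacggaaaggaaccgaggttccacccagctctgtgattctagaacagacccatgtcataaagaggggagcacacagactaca

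Among the kinases, Jak2 separated TNF+TGF-β in WT cells from all other groups. Jak2, which serves receptors of the IL-12, IL-6 and interferon-gamma families, was at 26.6, 36.6 and 29.1 FPKM in Th0, 32.2, 53.7 and 49.04 with IL-6+TGF-β, 117, 149 and 87.1 with TNF+TGF-β, and 52.3, 35.9 and 31.5 in Tnfr2-/- cells. The lowest WT TNF+TGF-β library was above the highest of the other 9, which overlapped. Jak2 rose by 1.88 ± 0.25 (limma adjusted p = 0.000163) over Th0, exceeded IL-6+TGF-β by 1.37 ± 0.25 (adjusted p = 0.00284) and was lower in Tnfr2-/- cells by 1.54 ± 0.25 (adjusted p = 0.000619). With IL-6+TGF-β the difference from Th0 was 0.51 (95% interval −0.03 to 1.06, adjusted p = 0.170), which passed without replicate 1 of that group (0.0473).

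Jak1, the partner kinase of most cytokine receptors of T cells, was the 1 member called higher in Tnfr2-/- cells than in WT. It was at 97.8, 94.3 and 104 FPKM in Th0, 138, 185 and 179 with IL-6+TGF-β, 154, 192 and 137 with TNF+TGF-β, and 234, 254 and 281 in Tnfr2-/- cells. Th0 was below and Tnfr2-/- above all other libraries, and the WT cytokine groups overlapped. Jak1 rose by 0.69 ± 0.15 (limma adjusted p = 0.00453) with TNF+TGF-β and by 0.75 ± 0.15 (adjusted p = 0.00337) with IL-6+TGF-β, and was a further 0.68 ± 0.15 (adjusted p = 0.00437) higher in Tnfr2-/- cells. The cytokine pairs differed by −0.06 (95% interval −0.38 to 0.27), a value whose sign turned under TPM scaling.

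Jak3, which pairs with the common gamma chain of the IL-2 family of receptors, had the largest standard error of the 9 genes. It was at 43.2, 76.05 and 50.9 FPKM in Th0, 68.4, 155 and 137 with IL-6+TGF-β, 107, 120 and 96.6 with TNF+TGF-β, and 54.95, 34.3 and 27.6 in Tnfr2-/- cells. The libraries with TNF+TGF-β in WT were above those of Th0 and of Tnfr2-/- cells, and replicate 1 of IL-6+TGF-β lay within the range of Th0. Jak3 was lower in Tnfr2-/- cells than in WT by 1.50 ± 0.32 (limma adjusted p = 0.00349). It was higher than in Th0 by 0.95 ± 0.32 (adjusted p = 0.0401) with TNF+TGF-β and by 1.03 ± 0.32 (adjusted p = 0.0364) with IL-6+TGF-β. The first of these calls was lost without Th0 replicate 1 (0.142) or 3 (0.112) or any 1 TNF+TGF-β replicate (0.0616 to 0.122), and the other without Th0 replicate 1 (0.132) or 3 (0.106) or IL-6+TGF-β replicate 2 (0.138) or 3 (0.128). Without a filter on low values both were lost (0.0925 and 0.0861), and the second also in a fit of its 2 groups alone (0.0665).

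Of the shares of the kinase genes in the summed FPKM of the 3, that of Jak2 was highest in WT with TNF+TGF-β. Jak2 made up 27.1% to 32.4% with TNF+TGF-β in WT, against 15.8% to 17.7% in Th0, 13.4% to 13.7% with IL-6+TGF-β and 9.26% to 15.3% in Tnfr2-/- cells. Jak1 made up 40.6% to 42.8% with TNF+TGF-β in WT and 68.6% to 82.6% in Tnfr2-/- cells. In Th0 it made up 45.6% to 58.35% and with IL-6+TGF-β 47.0% to 57.8%, which overlapped. Jak3 made up 25.8% to 36.7% in Th0, 28.7% to 39.4% with IL-6+TGF-β and 25.9% to 30.1% with TNF+TGF-β in WT, which overlapped. In Tnfr2-/- cells it made up 8.1% to 16.1%. The sum itself was 387 ± 70.5 FPKM in WT with TNF+TGF-β and 335 ± 9.27 in Tnfr2-/- cells (SD, n = 3 each, exact permutation p = 0.40). Between these groups the share of each of the 3 genes did not overlap, while the summed levels did. Each share gave p = 0.10 by the exact permutation test (adjusted p = 0.137).

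**Figure D2:**
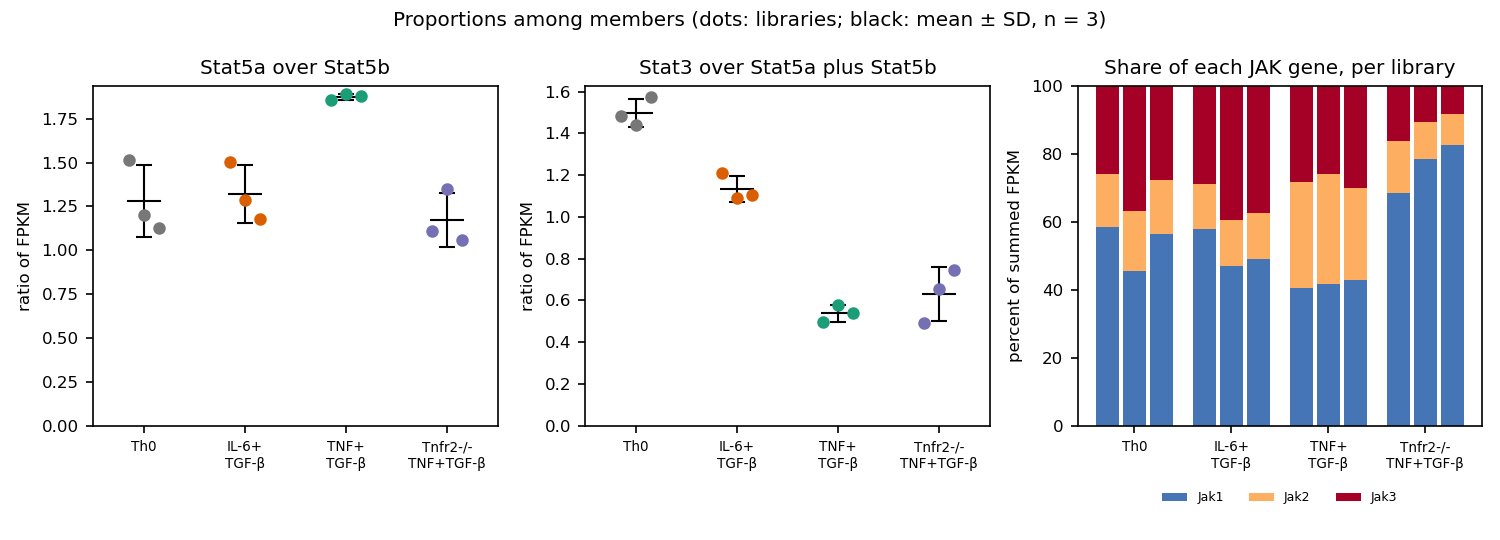
Ratio of Stat5a to Stat5b FPKM (left) and of Stat3 to the sum of the STAT5 genes (middle) by group, with libraries as points and the mean and SD of 3 libraries in black, and the percent of the summed JAK FPKM taken by each kinase gene in each library (right, 1 bar per library). The Stat5a to Stat5b ratio is 1.86 to 1.89 with TNF+TGF-β in WT, and Jak1 takes 68.6% to 82.6% in Tnfr2-/- libraries.

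Counted over the 9 genes, 6 were called higher and 1 lower under TNF+TGF-β relative to Th0, where 31.7% of all tested genes were called (18.7% higher and 13% lower). Higher genes made up 58.9% of all calls, and 72.6% under TPM scaling. The libraries of these groups did not overlap for any of the 9, with 7 higher and 2 lower, against 55.1% of all genes (31.9% higher and 23.2% lower). The median difference of the 9 was 0.94, against 0.07 over all tested genes. For IL-6+TGF-β, 5 were called higher and 2 lower, against 23.2% of all genes (14.1% higher and 9.15% lower). There 4 lay higher and 2 lower without overlap, against 39.2% of all genes (22.4% higher and 16.8% lower), and the medians were 0.75 and 0.04. Under TPM scaling the median over all genes moved to 0.22 and 0.13 in these comparisons, and none of the 9 changed direction. Both share the Th0 libraries and are not independent. The B cell markers moved too, with 8 of 8 called lower under TNF+TGF-β and 2 of 8 under IL-6+TGF-β. Of 4 tested CD8 and NK markers, 3 were higher under TNF+TGF-β, and 2 higher and 1 lower under IL-6+TGF-β. The summed level of all 5 on that list was 130.5 to 208 FPKM in Th0, 345 to 398 under TNF+TGF-β and 429 to 518 under IL-6+TGF-β. Of 8 myeloid markers 1 and 4 were lower, and of 7 CD4 T cell markers 3 and 3, in the same order of pairs. The part of these markers in the results of the 9 genes was not tested.

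Between the cytokine pairs, 2 genes (Jak2 and Stat6) were called higher under TNF+TGF-β and 1 (Stat3) lower, while 12.8% of all tested genes were called (7.31% higher and 5.5% lower). Stat5a joined Jak2 and Stat6 among the 3 that lay higher without overlap, and Stat3 was the 1 that lay lower, against 32.1% of all genes (16.9% higher and 15.1% lower). The median of the 9 was 0.12, against 0.00 over all genes. Of the B cell markers, 5 of 8 were called lower in the TNF+TGF-β libraries. Of 7 CD4 T cell markers 1 was higher and 1 lower, and of 4 tested CD8 and NK markers also 1 and 1. Of 8 myeloid markers 0 were called, with 4 higher at an unadjusted p under 0.05 by limma. The part of these markers in the results was not tested.

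Comparing Tnfr2-/- with WT cells under TNF+TGF-β, 5 of the 9 genes were called lower (Stat3, Stat5a, Stat6, Jak2 and Jak3) and 1 higher (Jak1). Of all tested genes 37.4% were called, 19.9% higher and 17.5% lower, so that 53.2% of the calls were higher, and 42.7% under TPM scaling. Without overlap 2 members lay higher and 5 lower, against 50.8% of all genes (26.8% higher and 24.0% lower), and the medians were −0.65 for the 9 and 0.00 for all. Without the library numbered 4, 4 were lower and 1 higher, and without replicate 1, 6 were lower and 2 higher. All 8 B cell markers and 6 of 8 myeloid markers were higher in Tnfr2-/- cells, and 3 of 4 tested CD8 and NK markers were lower. Of 7 CD4 T cell markers 1 was higher and 2 were lower. In the Tnfr2-/- replicates 1 and 2 and the library numbered 4, their summed level was 2779, 2207 and 1879 FPKM. In WT it was 2460 to 2665. The summed B cell markers were 1960, 3514 and 4307 FPKM in the Tnfr2-/- replicates 1 and 2 and the library numbered 4, against 264 to 339.9 in WT. In that same order of libraries Stat5a was at 101, 72.9 and 49.9 FPKM, Jak2 at 52.3, 35.9 and 31.5 and Jak1 at 234, 254 and 281. Stat3 was at 93.9, 82.95 and 72.4 FPKM, Stat5b at 90.5, 54.1 and 47.1 and Stat6 at 79.3, 70.4 and 63.9. Jak3 was at 54.95, 34.3 and 27.6 FPKM and Stat4 at 31.9, 38.2 and 51.5. Each of the 9 genes thus rose or fell steadily in this order. Stat2, at 9.75, 11.5 and 17.8 FPKM, also stood highest in the library with the most B cell marker RNA. The myeloid markers were at 1590, 1190 and 275 FPKM. The part of these cell markers in the results was not tested.

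**Figure D3:**
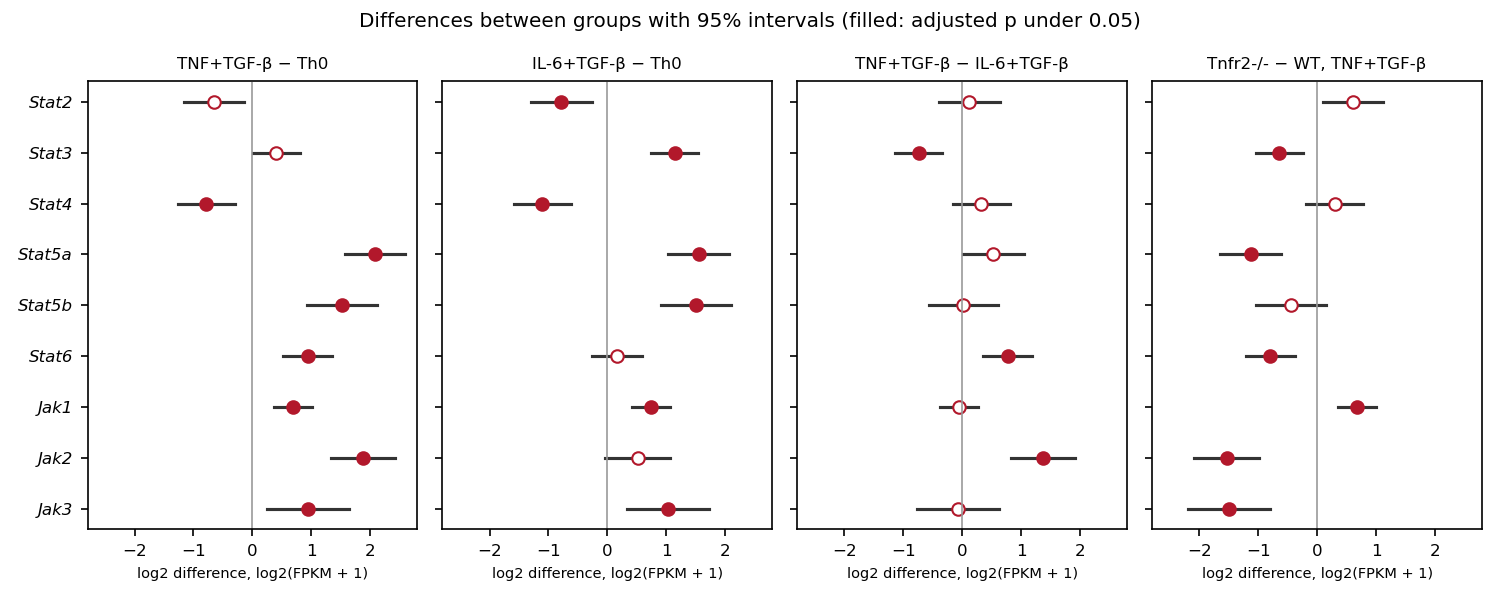
Log2 differences on the log2(FPKM + 1) scale (horizontal axis) of the 9 genes in the 4 comparisons, with 95% intervals from limma. Filled points have an adjusted p under 0.05. Stat5a is 2.08 higher with TNF+TGF-β than in Th0, and in Tnfr2-/- cells 5 genes lie below 0 and Jak1 above it among the filled points.

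In the WT groups the same library was often the highest for most members. Replicate 2 of TNF+TGF-β was the highest of its group for 9 of 9 members, and replicate 2 of Th0 and of IL-6+TGF-β for 7 of 9 each. Replicate 1 of IL-6+TGF-β was the lowest of its group for 8 of 9. In the Tnfr2-/- group replicate 1 was the highest for 6 members and the lowest for 3, and the library numbered 4 the reverse, with Stat2, Stat4 and Jak1 highest there. Over the 12 libraries, deviations from the group means had a Pearson r of 0.97 for Stat5b with Jak3 and 0.82 for Stat2 with Jak1, but −0.23 for Stat4 with Stat5a and −0.19 for Stat2 with Stat5a. These are descriptions over libraries that share depth and composition. The sum of FPKM over all genes was lowest in replicate 2 of each WT group, at 784475 in Th0, 707613 with IL-6+TGF-β and 689045 with TNF+TGF-β. It was highest in replicate 1 of IL-6+TGF-β, at 828161. The part of this difference in composition in the members' spread was not tested.

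The list counts that follow stand beside the shares of all tested genes called, 31.7% with TNF+TGF-β and 23.2% with IL-6+TGF-β against Th0, 12.8% between the pairs and 37.4% in Tnfr2-/- cells. Upstream of the kinases, the receptor list (24 genes whose receptors use JAK kinases, 19 tested) had 9 genes called higher than Th0 and 3 lower under TNF+TGF-β, and 7 and 3 under IL-6+TGF-β. Il2rb, the beta chain of the IL-2 and IL-15 receptors, was at 94.5 ± 36.8 FPKM in Th0 and rose to 338 ± 73.7 under IL-6+TGF-β and 406 ± 9.08 under TNF+TGF-β (SD, n = 3 each). Il12rb1, a chain of the IL-12 and IL-23 receptors, fell from 27.96 ± 2.58 to 5.35 ± 1.66 FPKM with TNF+TGF-β (limma adjusted p = 0.000142). Of the receptor genes, 7 were higher and 7 lower in Tnfr2-/- cells than in WT. Il21r, the IL-21 receptor gene, was at 46.4 ± 14.9 against 148 ± 15.4 FPKM, and Il10ra, a chain of the IL-10 receptor, at 17.7 ± 2.11 against 4.51 ± 0.36. Of the 11 tested ligand genes, 4 were called higher and 4 lower under TNF+TGF-β relative to Th0, and Ebi3, a subunit of IL-27, was at 22.3 ± 2.63 FPKM under TNF+TGF-β and 1.09 ± 0.38 under IL-6+TGF-β.

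Negative regulators included feedback genes that STAT proteins themselves induce. Of 18 tested, 5 were higher and 3 lower than in Th0 with each cytokine pair, where 31.7% (TNF+TGF-β) and 23.2% (IL-6+TGF-β) of all genes were called. Cish, a STAT5-induced inhibitor, was at 27.5 ± 11.6 FPKM in Th0, 129 ± 11.3 under TNF+TGF-β and 29.3 ± 15.7 in Tnfr2-/- cells, with a log2 difference of −2.24 from WT (limma adjusted p = 0.000646). Socs2 was at 33.8 ± 5.66 FPKM in Th0, 154 ± 13.2 with IL-6+TGF-β, 123 ± 25.8 with TNF+TGF-β and 52.7 ± 13.3 in Tnfr2-/- cells. Socs1 was lower under TNF+TGF-β than under IL-6+TGF-β by 0.69 on the log2 scale (adjusted p = 0.00201), 1 of 2 regulators called there. The other was Socs3, at 5.80 ± 2.01 FPKM under TNF+TGF-β and 138 ± 11.9 under IL-6+TGF-β. Its log2 difference was −4.39 (limma adjusted p = 4.4e-07). Of the 8 STAT partners, Irf9, the DNA-binding subunit of ISGF3 beside STAT2, was at 24.2 ± 3.19 FPKM under TNF+TGF-β and 45.01 ± 4.59 in Th0. In Tnfr2-/- cells it was at 53.6 ± 14.4 (adjusted p = 0.000742 against WT).

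Genes known as targets of each STAT were listed and counted. Targets of STAT3 were higher than in Th0 for 13 of 14 tested with IL-6+TGF-β, and for 8 of 14, with 1 lower, with TNF+TGF-β. Between the pairs 10 of 14 were lower under TNF+TGF-β and 0 higher by limma (0 at an unadjusted p under 0.05), with a median difference of −1.02. Against WT, 5 were lower and 1 higher in Tnfr2-/- cells, the lower ones including Batf, an AP-1 family factor, at 23.01 ± 7.50 against 58.9 ± 9.41 FPKM, and Junb at 195 ± 15.7 against 363 ± 17.96.

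Targets of STAT5 were higher than in Th0 for 7 of 13 with either pair, with 2 lower for TNF+TGF-β and 1 for IL-6+TGF-β. Against WT, 10 of 13 were lower in Tnfr2-/- cells and 0 higher by limma (0 at an unadjusted p under 0.05), with a median of −1.16. Bcl2l1, which encodes the survival protein BCL-XL, was at 85.5 ± 1.61 FPKM in WT and 16.8 ± 4.87 in Tnfr2-/- cells (limma adjusted p = 2.23e-05). With IL-6+TGF-β it was at 25.8 ± 5.20 FPKM, and it was higher with TNF+TGF-β by 1.71. Osm, which encodes oncostatin M, was at 25.1 ± 3.17 FPKM under IL-6+TGF-β and 11.96 ± 1.93 under TNF+TGF-β.

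Targets of STAT2 and interferon were lower than in Th0 for 12 of 13 under IL-6+TGF-β and 10 of 13 under TNF+TGF-β, and higher for 0 in each by limma (0 and 0 at an unadjusted p under 0.05). Against WT, 5 of 13 were higher in Tnfr2-/- cells and 2 lower. Usp18, an interferon-induced protease gene, was at 10.2 ± 1.94 FPKM in Th0, 2.23 ± 0.11 under IL-6+TGF-β and 2.28 ± 0.50 under TNF+TGF-β. In Tnfr2-/- cells it was at 9.81 ± 5.08. Its values there were 7.53 and 6.28 in replicates 1 and 2, and 15.6 in the library numbered 4. Ifih1, on the same list, was at 16.5 ± 0.67 FPKM in Th0, 7.42 ± 0.48 under TNF+TGF-β and 2.92, 2.55 and 1.17 in the Tnfr2-/- libraries. Of 7 tested STAT4 targets, 4 were called higher and 2 lower under TNF+TGF-β relative to Th0, and 3 were lower in Tnfr2-/- cells than in WT. Of 6 tested STAT6 targets, 3 were higher and 0 lower than in Th0 with either pair by limma (0 lower with each at an unadjusted p under 0.05), and in Tnfr2-/- cells 4 were lower and 1 higher than in WT. Ccr4, a chemokine receptor gene of Th2 and regulatory cells, was at 52.9 ± 0.74 FPKM under TNF+TGF-β, 13.3 ± 3.45 with IL-6+TGF-β and 10.07 ± 4.31 in Tnfr2-/- cells.

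**Figure D4:**
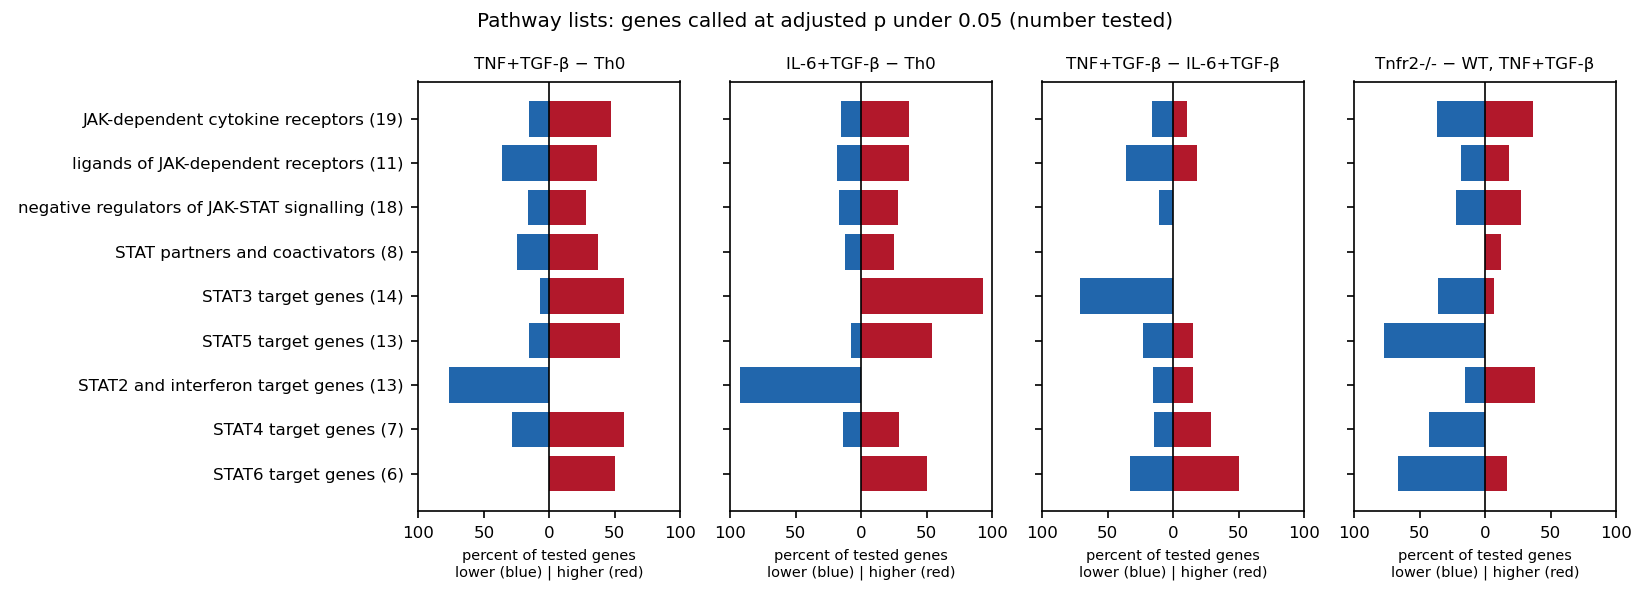
Percent of the tested genes of each list called higher (red, to the right) or lower (blue, to the left) at an adjusted p under 0.05, for the 4 comparisons, with the number tested in parentheses. Of STAT3 targets 13 of 14 are higher with IL-6+TGF-β, and of STAT5 targets 10 of 13 are lower in Tnfr2-/- cells.

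The genes most like each member over the 12 libraries were sought by Pearson's r of log2(FPKM + 1) among 7204 other tested genes with a mean of at least 10 FPKM. These values are descriptions over libraries that share groups, depth and composition. For Stat3 they were Pim1 (r = 0.968) and Rnf125 (0.95), for Stat5a Myo1f (0.989) and Plscr3 (0.983), and for Stat5b Gpkow and Furin (0.983 each). For Stat6 they were Tnip1 (0.974) and Decr2 (0.969), for Stat4 Rab19 (0.897) and Mllt3 (0.884), and for Stat2 Parp14 (0.929) and Trim21 (0.916). For Jak1 they were Eif2ak3 (0.982) and Tmem167b (0.98), for Jak2 Igf2r (0.989) and Tspyl3 (0.978), and for Jak3 Racgap1 (0.989) and Lmf2 (0.986). Stat4 and Stat2 thus had the loosest matches.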

How the data were processed

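Bulk RNA sequencing libraries (12) were prepared from low-input cDNA (SMARTer kit) with Nextera XT, per the labels' protocols. The submitters' processing notes list Trimmomatic, STAR 2.5.4, RSEM 1.3.1 and mm10. The deposited table held gene-level RSEM values, per the file headers, without naming the quantity. The deposited values were read as FPKM made by the authors, because their sums differed between libraries (689045 to 828161) and, multiplied by mean transcript length in kilobases, came to 900467 to 1010096. The column of the Tnfr2-/- group numbered 4 matches no label number and was used as a member of its group.

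Limma 3.58.1 (R 4.3.3) was run on log2(FPKM + 1), with 1 mean per group over 12 libraries, a trended variance prior and no covariate. A gene was tested if 3 or more libraries had 1 FPKM or more (13082 genes), with Benjamini-Hochberg adjustment over all of them in each of 4 comparisons. A gene was called at an adjusted p under 0.05. The fit was tested on simulated data. Ratios were compared by exact permutation. Coordinates are from GENCODE M21 (GRCm38), in which 47224 of the identifiers were found. All 9 members are named, with up to 3 called genes per list and comparison and the 2 most alike genes per member. Members and lists were chosen with earlier results of these data known. The alternatives were another pseudocount, no filter, TPM and median-ratio scaling, fits of 2 groups, the replicate number as a block, and each library left out.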

Additional observations from a re-analysis of the deposited data

How the results depend on the processing

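The calls of Stat5a, Stat5b, Jak1 and Jak2 against Th0 with TNF+TGF-β, of Stat3, Stat4, Stat5a, Stat5b and Jak1 with IL-6+TGF-β, of Jak2 between the pairs, and of Stat5a, Stat6, Jak1, Jak2 and Jak3 in Tnfr2-/- cells held under every alternative run, as did Stat6 with TNF+TGF-β. The calls of the other members that did not are given with their values in the report. The cause of these changes was not tested. Leaving out 1 library at a time moved the number of genes called lower with TNF+TGF-β against Th0 between 1074 and 1478 (1703 with all), and with IL-6+TGF-β between 756 and 1630 (1197 with all). Between the pairs the genes higher ran from 575 to 844 (956 with all) and those lower from 469 to 654 (719 with all), and in Tnfr2-/- cells those lower from 1480 to 2659 (2290 with all). The differences between the pairs that changed sign were not called in any fit. Without 1 library they ran from −0.081 to 0.27 for Stat2, −0.28 to 0.17 for Stat5b, −0.19 to 0.051 for Jak1 and −0.44 to 0.15 for Jak3, and that of Jak1 was 0.013 under TPM scaling. Rescaling to TPM moved the median of all genes in Tnfr2-/- cells to −0.10.

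Replicate numbers were not taken as pairs, since the labels tie them to no mouse or day and not every correlation of same-numbered deviations from the group means exceeded 0.1. They ran from −0.03 to 0.34, the highest for replicates 1 (0.29) and 2 (0.34) of IL-6+TGF-β and Th0. With the replicate block, which leaves the Tnfr2-/- library numbered 4 without weight, 1353 genes were lower in Tnfr2-/- cells, and Stat3 was no longer called there (−0.55, adjusted p = 0.0706), while Stat2 was called lower with TNF+TGF-β (adjusted p = 0.0387). Stat4 stayed called lower with TNF+TGF-β under the block, with a smaller SE (−0.78 ± 0.14, limma adjusted p = 0.003265).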
